A study of Mus musculus with 12 samples.

Results

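Retained-intron transcripts are alternative products of a gene in which sequence that the gene's coding transcripts splice out is kept. Transcripts annotated with the retained_intron biotype by GENCODE and belonging to a protein-coding gene were selected, which gave 15409 transcripts of 6647 genes among the 92468 transcripts quantified in mouse liver. The rule uses the annotation alone and no measured value. Each is named by its gene symbol and transcript number, as in Luc7l2-206, and coordinates are those of build GRCm38.

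An intron that stays in a messenger RNA usually brings an in-frame stop codon soon after the exon ends. If such an RNA reaches the cytoplasm and is translated, an exon junction that lies well behind the stop codon can mark it for nonsense-mediated mRNA decay (NMD), the pathway that removes messages with premature stop codons. UPF3B is the NMD factor that links the exon junction complex to the core factor UPF2. Many intron-retaining RNAs remain in the nucleus instead, where NMD does not act, and splicing factor and CLK kinase genes are well known for introns of this kind.

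RNA was measured in livers of 12 hFIX-R29X mice aged 8 to 14 weeks, a hemophilia B strain in which all animals lack the mouse F9 gene and express, mainly in hepatocytes from the human transthyretin promoter, a minigene of human factor IX that holds a nonsense codon. The 4 DPBS mice received vehicle, the 4 control ASO mice a scrambled antisense oligonucleotide at 15 mg/kg and the 4 Upf3b-ASO mice an antisense oligonucleotide against Upf3b at 10 mg/kg. Both oligonucleotides carried N-acetylgalactosamine, which directs them to hepatocytes, and their doses differed. Each mouse had 6 doses at intervals of 5 days, livers were taken 48 h after the last dose, and each group had females as replicates 1 and 2 and males as replicates 3 and 4.

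Total estimated counts ranged from 13277892 to 20387682 per liver. Upf3b was lower as labelled, with 0.381 to 1.03 TPM (a level corrected for transcript length and scaled to a common total) in the Upf3b-ASO livers, 4.23 to 8.0 in the control ASO livers and 7.12 to 9.64 in the DPBS livers. Hepatocyte markers were high in every liver, with a summed level of 58400 to 118000 TPM over 12 genes. Control ASO replicate 3, a male, stood apart, with a summed level of 20 acute phase and stress genes of 44200 TPM against 5090 to 7730 in the other 11 livers. Control ASO replicate 1, a female, had a summed erythroid marker level of 12200 TPM over 9 measured genes against 790 to 1800 in the others, and a neutrophil marker level of 218 TPM over 6 genes against 1.89 to 27.7. The hepatocyte sum was lower in the Upf3b-ASO livers within each sex, at 104000 and 105000 TPM against 110000 to 118000 in the other females and 58400 and 62300 against 70800 to 78200 in the other males, and the erythroid sum was 1520 to 1800 TPM there against 790 to 1510 under DPBS. In bulk liver, fewer cells of a type and less RNA per cell cannot be told apart. The part of these differences in the results was not tested, and counts of calls, medians and shares that rest on the control ASO group are also given without replicate 3.

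Most of these annotated transcripts are short fragments of a gene. Their median length was 840 bases with a median of 3 exons. By their ends, 6259 stop inside an intron of the coding transcripts, 4638 begin inside one, 1779 do both and 2733 do neither. A coding intron of at least 50 bases was kept whole in 4557 of them, which amounted to 6063 distinct introns with a median length of 269 bases, and 98.4% of these introns began with GT. Among the 10776 transcripts that read from a coding exon into the following intron, 9683 met a stop codon in frame within the intronic stretch, at a median distance of 34 bases into the intron. In 2525 of the transcripts an exon junction of the same transcript lay more than 50 bases behind that stop, the usual position for NMD, while in 7158 none did. Only junctions of the annotated fragment were counted, so for transcripts that stop inside an intron later ones could be missed. The reading frame was taken from the gene's coding transcript with the longest coding sequence at that exon end.

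The following stretches run from an exon into the intron that is kept, with the last 3 exonic bases in lower case and the first 27 intronic bases in capitals. They are shown because these transcripts changed between groups or sexes and because the stop codon lies inside the window. Each sequence is written 5′ to 3′ in the sense of the gene, as in the GENCODE transcript.
Por-205: accGTGAGTGTGGGAAGGGACGTGGGGAGA
Luc7l2-203: gagGTACTGAAGTGCCGATCAGAGGATGCG
Srsf5-212: cagGTTTGTTGAAATACAGTTTTGAGATAT
Dcaf6-202: atgGTACCGGCTGCTCGTGGCATTCTTTGA
Akap9-211: gagGTAAGGGTTCTTCTCTATTCAAAATAA

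The Por-205 window lies at chr5:135731659-135731688 on the plus strand and its TGA stop starts at intronic base 2. The Luc7l2-203 window is at chr6:38603466-38603495, also on the plus strand, with TGA from intronic base 5, and the Srsf5-212 window at chr12:80947863-80947892, plus strand, with TGA from base 7. The Dcaf6-202 window is at chr1:165339858-165339887 on the minus strand and the Akap9-211 window at chr5:4034865-4034894 on the plus strand, with TGA and TAA, respectively, from intronic base 25. Srsf5-212 and Dcaf6-202 each keep 1 intron whole and have an exon junction more than 50 bases behind the stop. Por-205, Luc7l2-203 and Akap9-211 have none.

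Other transcripts begin or change inside an intron and read through its 3′ end. In the next lines the last 22 intronic bases are in capitals and the first 8 exonic bases in lower case, shown for 2 transcripts that changed with the Upf3b-ASO.
Ifi27-209: CAGGATTGTTTTTTCTTTCTAGccaaggct
2200002D01Rik-202: GTAACTCCCCTCTCCTCCGCAGccctgggc

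The windows are at chr12:103437654-103437683 on the plus strand for Ifi27-209 and chr7:29248233-29248262 on the minus strand for 2200002D01Rik-202. Each intronic part ends in the AG of a 3′ splice site.

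The number of unique bases, meaning genomic positions that no other quantified transcript covers on either strand, limited what could be measured. Similar sequence elsewhere in the genome was not looked for. Of the 15409 transcripts, 11353 had at least 100 unique bases and 1734 had none. Salmon divides reads that fit several transcripts by a statistical model. The value of a transcript with few unique bases thus rests mostly on positions it shares with other transcripts, spliced or retaining the intron. Splice junctions that only 1 transcript has are not counted as unique bases. A level of at least 1 TPM and 10 estimated counts in at least 4 livers was reached by 4890 of the transcripts, or 31.7%, in 2695 genes. These had a median of 27.2 counts per liver, against 130 for the protein-coding transcripts that passed the same filter.

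The highest levels belonged to transcripts of abundant liver messages with little or no unique sequence. Mup9-205, of a major urinary protein gene, averaged 13200 TPM with 0 unique bases, and Trf-209, of the serum iron carrier transferrin, averaged 9960 TPM with 10. Uox-203 of urate oxidase followed with 998 TPM, Hspa8-204 of a constitutive heat shock chaperone with 846 and Hbb-bs-202 of β-globin with 585, on 44, 21 and 55 unique bases. Major urinary protein genes are near-identical copies, so which copy their reads belong to is uncertain. Hbb-bs-202 reached 971 CPM (counts scaled to a common library size) in control ASO replicate 1, the liver with the high erythroid markers, and 65.3 to 134 CPM in the other 11 livers.

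Within a gene, a retained-intron transcript was usually a minor product. Over the 4696 tested transcripts whose gene averaged at least 5 TPM and had a tested protein-coding transcript, the median share of the gene's counts was 3.57%, with quartiles at 1.61% and 8.18%. The share was under 5% for 2884 of them and over 50% for 56. The largest shares were those of Ndufb4-202, of a mitochondrial complex I subunit, with 96.7%, 94.5% and 95.3% of the gene's counts on average in the DPBS, control ASO and Upf3b-ASO livers, and of Cutc-203, of a copper-binding protein, with 96.4%, 94.4% and 94.3%. Gm14391-205 averaged 91.3%, 93.5% and 93.9%, Mrps24-201, of a mitochondrial ribosomal protein, 88.8%, 87.3% and 85.1%, and Rps16-203, of a cytosolic ribosomal protein, 86.6%, 84.3% and 86.5%. Mrps24-201 has no unique base and Cutc-203 has 87 and keeps no intron whole, so their shares rest mostly on positions that other transcripts cover too. Gm14391-205 has 5156 unique bases. These are counted by position, and whether its reads also fit similar genes elsewhere was not tested. None of these 5 was called in a comparison of groups.

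Retained-intron transcripts held 2.68%, 2.67%, 3.01% and 3.03% of the counts of protein-coding genes in DPBS replicates 1 to 4, 2.96%, 2.76%, 3.21% and 2.94% in the control ASO livers and 2.95%, 2.83%, 2.72% and 2.74% in the Upf3b-ASO livers. The Upf3b-ASO mean of 2.81% ± 0.105 (SD, n = 4) was 0.16 percentage points below the control ASO mean of 2.97% ± 0.185 and overlapped it. Without control ASO replicate 3 the difference was -0.0784 points, and in TPM it went from -0.733 to -0.612. In TPM the shares were 7.16% ± 0.192 in the Upf3b-ASO livers, 7.89% ± 0.41 in the control ASO livers and 7.82% ± 0.689 in the DPBS livers. The highest treated liver, at 7.329%, was just below the lowest control ASO liver, at 7.334%, and above 2 of the DPBS livers. Mup9-205 and Trf-209 together held 36.4% of the TPM on retained-intron transcripts. Without them the share was 4.99% ± 0.478 under the Upf3b-ASO, 4.88% ± 0.59 under the control ASO and 4.7% ± 0.177 under DPBS, and the groups overlapped.

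**Figure D1:**
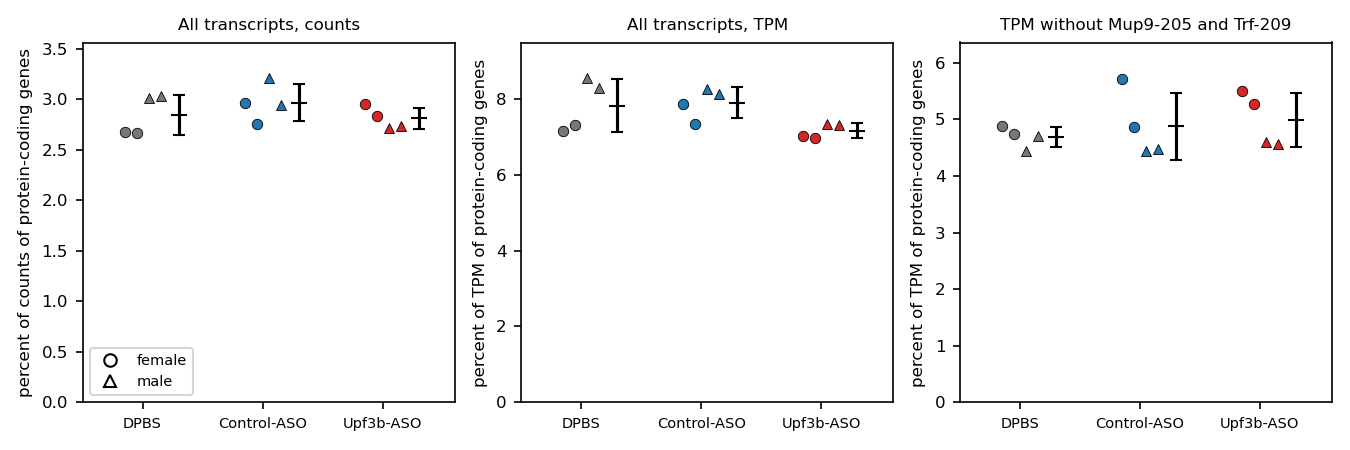
Share of the counts (left) and of the TPM (middle) of protein-coding genes on retained-intron transcripts in each liver, in percent, and the TPM share without Mup9-205 and Trf-209 (right). Circles are females, triangles males, and the bar beside each group is the mean with the SD of 4 livers. The lower Upf3b-ASO values in the middle plot, 6.96% to 7.33%, are not seen on the right, where the Upf3b-ASO livers lie at 4.57% to 5.51%.

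The order of the sexes on this scale also depended on those 2 transcripts. Males held 7.98% ± 0.522 of TPM on retained-intron transcripts and females 7.28% ± 0.319 (SD, n = 6 each). Without Mup9-205 and Trf-209 in the sum the order turned, with 4.54% ± 0.103 in males and 5.16% ± 0.395 in females. The total of protein-coding genes was left as it was. Transcripts with at least 100 unique bases held 2.15% ± 0.118 in males and 2.36% ± 0.2 in females. In counts the share was 2.94% ± 0.189 in males and 2.81% ± 0.127 in females. Without those 2 transcripts it was 2.43% ± 0.122 and 2.48% ± 0.176, and with at least 100 unique bases 1.69% ± 0.151 and 1.68% ± 0.138. The sexes overlapped in each of these count shares.

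The typical retained-intron transcript was described by the median, over the tested transcripts, of the log2 ratio of each liver to the DPBS mean. For the 3323 with at least 100 unique bases this median was 0.37 in control ASO replicate 3, 0.03 to 0.04 in the other 3 control ASO livers and -0.105 to 0.103 in the Upf3b-ASO livers. For the 1567 with fewer unique bases it lay between -0.01 and 0.08 in all 12 livers. The upward shift was thus seen in 1 control ASO liver, among transcripts with at least 100 unique bases. Protein-coding transcripts of the same liver had a median of -0.11. The 1656 tested transcripts of the nonsense_mediated_decay biotype, which carry an annotated premature stop, had medians of 0.10 to 0.15 in the Upf3b-ASO livers and 0.03 to 0.05 in the control ASO livers, without overlap. These had a median of 0 unique bases, with an upper quartile of 66, so their values rest mostly on positions shared with other transcripts. Reads over splice junctions of their own were not counted apart.

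**Figure D2:**
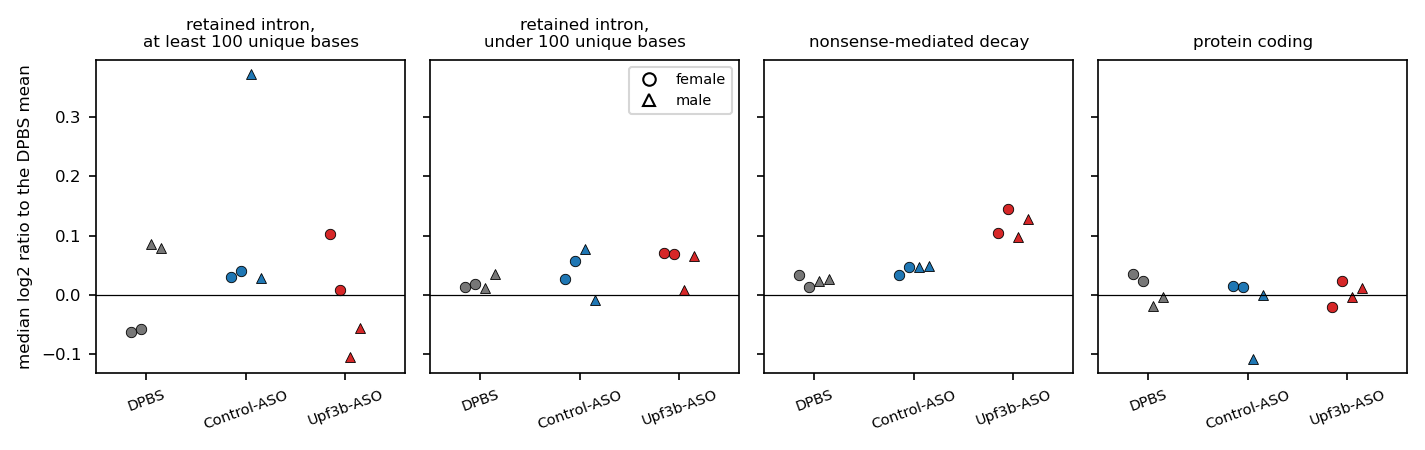
Median log2 ratio of each liver to the DPBS mean over the transcripts of a biotype, with circles for females and triangles for males. Control ASO replicate 3 is the single point at 0.37 among retained-intron transcripts with at least 100 unique bases, while the 4 Upf3b-ASO livers lie above the control ASO livers only in the plot of nonsense_mediated_decay transcripts.

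To ask which retained-intron transcripts differ under the Upf3b-ASO, its livers were compared with the control ASO livers. Few retained-intron transcripts changed. Of the 4890 tested, 13 passed an adjusted p-value of 0.05 (edgeR quasi-likelihood test with sex as a covariate, Benjamini-Hochberg adjustment over all 28847 tested transcripts), 4 higher and 9 lower. Among all tested transcripts 390 were called, or 1.35%, with 0.444% higher and 0.908% lower, against 0.266% of the retained-intron transcripts, which had fewer counts. The median log2 fold change was -0.13 over the retained-intron transcripts and -0.03 over all transcripts, and it was -0.02 and 0.00, respectively, without control ASO replicate 3. Against DPBS, 12 were called, 4 higher and 8 lower, beside 1.24% of all transcripts, with 0.361% higher and 0.877% lower, and the median log2 fold change was -0.01. These p-values measure the spread between animals, each of which gave 1 library. With only the 2 groups compared in the fit no retained-intron transcript was called against the control ASO, beside 0.153% of all transcripts. DESeq2 called 87, or 2.65% of the retained-intron transcripts that it gave an adjusted p, beside 6.8% of all. Against DPBS the 2-group fit called 43, beside 3.21% of all, and DESeq2 69, beside 5.2% of all.

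Leaving out control ASO replicate 3 raised the number of calls against the control ASO to 45, 12 higher and 33 lower, which included all 13 of the full comparison. Among all transcripts the calls went from 390 to 940, or 3.26%. Against DPBS there were 60 calls without that liver, 20 higher and 40 lower, which included all 12, beside 4.52% of all transcripts.

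Between the control ASO and DPBS no retained-intron transcript was called by edgeR, as among all transcripts (0.0% called). An unadjusted p-value under 0.05 was found for 169, or 3.46%, against 4.49% of all transcripts. DESeq2 called 2, beside 0.326% of all transcripts, and limma with voom quality weights called 0. The median log2 fold change was 0.11 over retained-intron transcripts and 0.01 over all, and without control ASO replicate 3 it was 0.01 and 0.00, with 0 calls.

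A transcript was singled out when it was called against both the control ASO and DPBS in the same direction and its levels in the 4 Upf3b-ASO livers were all above or all below those in the 4 control ASO livers. This held for 3 retained-intron transcripts that rose, Cblc-206, 2200002D01Rik-202 and Ifi27-209, and for 4 that fell, among them Clip1-207, Luc7l2-206 and Dcaf6-202. Over all 28847 transcripts it held for 0.205% that rose and 0.523% that fell. Both comparisons use the same Upf3b-ASO livers. When each control ASO or Upf3b-ASO liver was left out in turn, the call against the control ASO held in 6 of 8 fits for Luc7l2-206 and Ifi27-209, in 5 of 8 for Clip1-207 and Cblc-206, in 4 of 8 for Dcaf6-202 and in 1 of 8 for 2200002D01Rik-202, always in the same direction. The call against DPBS held in all 9 fits that left out a DPBS or Upf3b-ASO liver or control ASO replicate 3 for Dcaf6-202, in 5 for Ifi27-209, in 3 for Cblc-206, in 2 for Clip1-207 and Luc7l2-206 and in 1 for 2200002D01Rik-202.

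Clip1-207 had a rounded count of 0 in all treated livers. It is a 694-base fragment of Clip1, which encodes a microtubule plus-end protein, at chr5:123586187-123617463 on the minus strand, and it ends in an intron with 147 unique bases. It was at 0.578, 0.755, 0.117 and 0.68 CPM in the DPBS livers, 1.18, 1.58, 0.76 and 1.61 in the control ASO livers and 0 in the 4 Upf3b-ASO livers. With 3 counts over the group as the upper limit of a count of 0, it was at least 27.6-fold lower than in the control ASO livers (adjusted p = 0.019, edgeR) and at least 11.4-fold lower than in the DPBS livers (adjusted p = 0.039, edgeR). The rest of the gene, meaning its summed counts without any retained-intron transcript, fell by 0.28 ± 0.08 (log2, SE; adjusted p = 0.042) against the control ASO. Clip1-207 was also the 1 retained-intron transcript whose usage within its gene was called in this comparison, with an adjusted p of 0.0092 (edgeR diffSpliceDGE), among 0.141% of all transcripts tested for usage. It rested on only 88 estimated counts over the control ASO livers and 41 over the DPBS livers. Only those groups brought Clip1-207 past the filter, so it was tested because of its level there. The limit of 3 counts covers the sampling of reads and not how Salmon assigned them. Of the tested retained-intron transcripts, 10.6% had 0 counts in a liver and at least 30 in another, beside 14.7% of protein-coding transcripts.

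Luc7l2, which encodes a splicing factor of the U1 snRNP, had 3 called transcripts. Luc7l2-206, at chr6:38551531-38558049 on the plus strand, was at 30.2, 25.3, 37.4 and 34.1 CPM in the DPBS livers, 28.4, 32.9, 63.5 and 36.7 in the control ASO livers and 14.8, 12.2, 7.69 and 8.47 in the Upf3b-ASO livers. All treated livers were below all others. It fell by 1.87 ± 0.30 on the log2 scale against the control ASO (adjusted p = 0.015, edgeR) and by 1.53 ± 0.29 against DPBS (adjusted p = 0.035). Luc7l2-210 fell by 1.95 ± 0.30 and Luc7l2-203 by 1.70 ± 0.30 against the control ASO (adjusted p = 0.015 and 0.027, edgeR), while their adjusted p-values against DPBS were 0.09 and 0.073. Control ASO replicate 3 had the highest value of each, 21.6 CPM for Luc7l2-210 and 46.1 for Luc7l2-203. Without that liver Luc7l2-206 fell by 1.59, Luc7l2-210 by 1.58 and Luc7l2-203 by 1.36 on the log2 scale, and all were called. The rest of Luc7l2 fell as well, by 1.19 ± 0.18 (adjusted p = 0.0022), and no transcript of the 3 passed the usage test. Luc7l2-206 has no unique base, Luc7l2-203 has 408 and Luc7l2-210 has 648.

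Dcaf6-202, of a substrate receptor of CUL4 ubiquitin ligases, lies at chr1:165329505-165351998 on the minus strand and keeps a whole intron with 1540 unique bases. It was at 14.9, 14.5, 10.0 and 10.6 CPM under DPBS, 12, 15.8, 9.53 and 8.9 under the control ASO and 7.52, 7.45, 5.68 and 4.1 under the Upf3b-ASO, without overlap. It fell by 0.90 ± 0.15 on the log2 scale against the control ASO (adjusted p = 0.017, edgeR) and by 1.02 ± 0.15 against DPBS (adjusted p = 0.0099). The rest of the gene had a log2 fold change of -0.39 ± 0.14 that was not called (adjusted p = 0.1). The adjusted p of its usage was 1.0. Among these 7 transcripts only Dcaf6-202 has an in-frame intronic stop with an exon junction more than 50 bases behind it.

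Cblc-206, of a CBL-family ubiquitin ligase, had the largest rise of the 4 called higher against the control ASO. It lies at chr7:19786182-19792245 on the minus strand with 17 unique bases. Its levels were 0.893, 0.855, 2.69 and 1.67 CPM under DPBS, 1.45, 0.902, 1.86 and 1.31 under the control ASO and 4.5, 4.62, 5.35 and 7.6 under the Upf3b-ASO. The treated livers were above all others, by 1.98 ± 0.31 on the log2 scale against the control ASO (adjusted p = 0.015, edgeR), and the rest of the gene rose by 1.42 ± 0.19 (adjusted p = 0.0015).

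Ifi27-209, of an interferon-inducible protein of the mitochondria and nuclear envelope, lies at chr12:103437627-103440239 on the plus strand. It was at 23.3, 28.3, 22.3 and 26.6 CPM under DPBS, 29.2, 22.6, 21.5 and 26.0 under the control ASO and 51.2, 42.5, 38.7 and 44.8 under the Upf3b-ASO. It rose by 0.83 ± 0.13 on the log2 scale (adjusted p = 0.014, edgeR) and the rest of Ifi27 by 0.74 ± 0.15. Its share of the gene was 42.6% under the Upf3b-ASO and 42.5% under the control ASO. 2200002D01Rik-202, at chr7:29247572-29248338 on the minus strand, was at 2.47 to 6.95 CPM under DPBS, 3.66 to 6.99 under the control ASO and 9.98 to 17.6 under the Upf3b-ASO, a rise of 1.38 ± 0.27 (adjusted p = 0.038). The groups did not overlap for either transcript. Both have fewer than 100 unique bases.

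**Figure D3:**
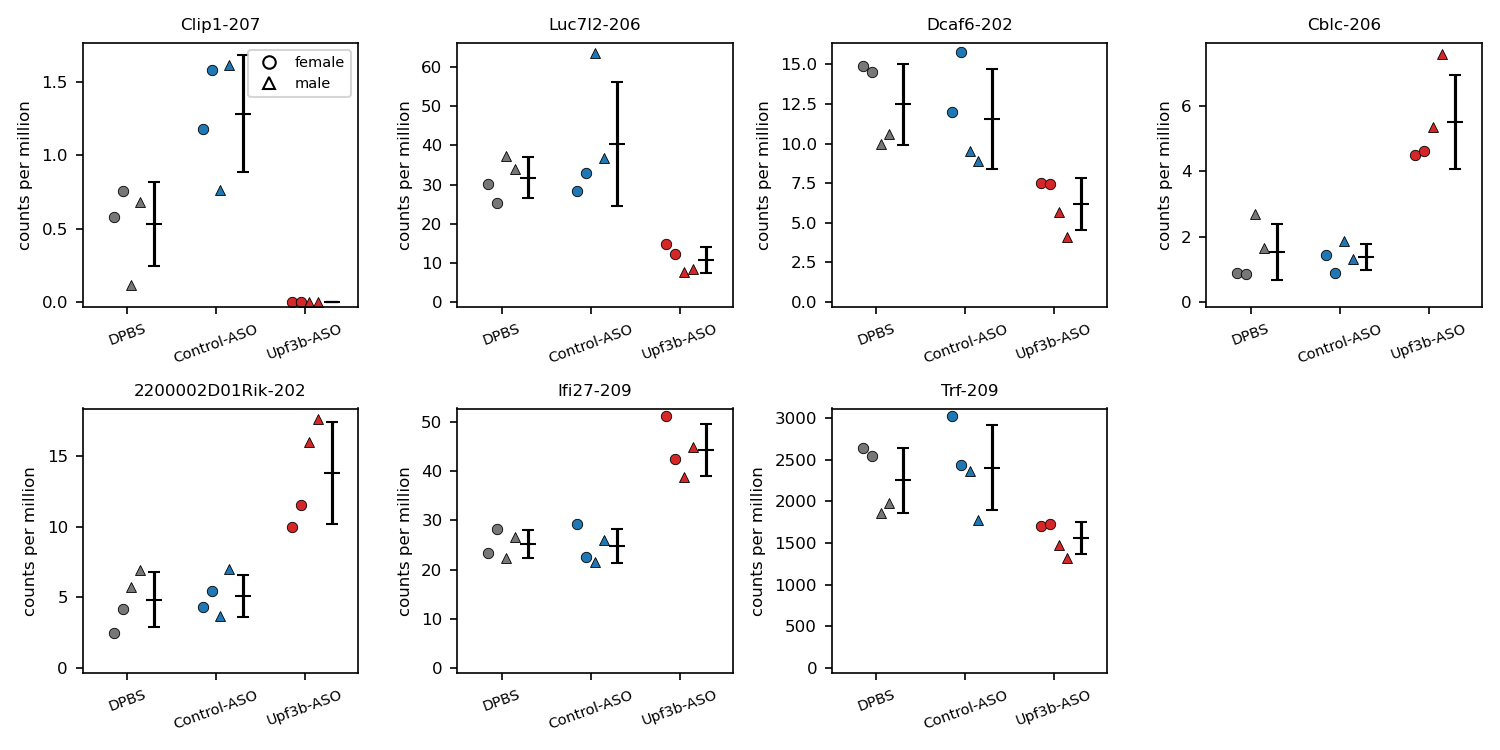
Levels, in CPM, of 6 retained-intron transcripts called against both reference groups and of Trf-209, in each liver. Circles are females and triangles males, and bars give the mean with the SD of 4 livers. Clip1-207 is at 0 in the 4 Upf3b-ASO livers, and the Luc7l2-206 value of 63.5 in control ASO replicate 3 is the highest of that group.

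The other transcripts called against the control ASO were Por-205, Cyp27a1-203, Trf-209 and Aox1-202. Por-205, of the electron donor to cytochrome P450 enzymes, was at 15.2, 16.5, 15.9 and 14.4 CPM in the control ASO livers and at 9.63, 7.83, 3.54 and 4.77 in the Upf3b-ASO livers, a fall of 1.37 ± 0.25 on the log2 scale (adjusted p = 0.029, edgeR). The DPBS livers, at 4.65 to 11.4 CPM, overlapped the treated ones. Cyp27a1-203, of a sterol 27-hydroxylase of bile acid synthesis, fell by 0.76 ± 0.15 (adjusted p = 0.043) and Trf-209 by 0.62 ± 0.11 (adjusted p = 0.026), whereas Aox1-202, of an aldehyde oxidase, rose by 0.76 ± 0.12 (adjusted p = 0.016). In each, the rest of the gene was called in the same direction.

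Among the 5 called only against DPBS were Abcc2-203, of the canalicular bilirubin glucuronide exporter, Myo6-208, of an unconventional myosin, and Psd3-210, which fell, and Tardbp-225, of the RNA-binding protein TDP-43, which rose. Myo6-208 was at 3.92 to 6.49 CPM under DPBS and 0.401 to 1.47 under the Upf3b-ASO, a log2 fold change of -2.71 ± 0.44 (adjusted p = 0.018, edgeR). Tardbp-225 was at 0.732 to 1.42 CPM and 2.14 to 3.16 CPM, respectively, a change of 1.34 ± 0.26 (adjusted p = 0.037). Against the control ASO the adjusted p-values of these 4 ran from 0.052 to 0.41, and whether the comparisons differ was not tested. Without control ASO replicate 3, Abcc2-203, Psd3-210 and Myo6-208 were called against the control ASO as well (adjusted p = 0.00074, 0.022 and 0.037, edgeR), with log2 fold changes of -1.15, -0.70 and -2.08, and Tardbp-225 was not (adjusted p = 0.41).

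The rest of the gene was examined for each called transcript. Of the 13 called against the control ASO, 12 had a rest of the gene with enough counts to test, and in 11 it was called in the same direction. Against DPBS it was 8 of 10. As a background, the rest of the gene was called in 10.6% of 8518 genes against the control ASO and in 9.24% against DPBS. The 13 transcripts lie in 11 genes, and a gene with several called transcripts was counted once for each, as with the 3 of Luc7l2. The background counts each gene once. A transcript with few unique bases can also share its reads with the rest of its gene, and the part of this was not tested. When control ASO replicate 3 was left out it was 36 of 43 against the control ASO and 45 of 57 against DPBS, beside 24.2% and 28.4% of genes.

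**Figure D4:**
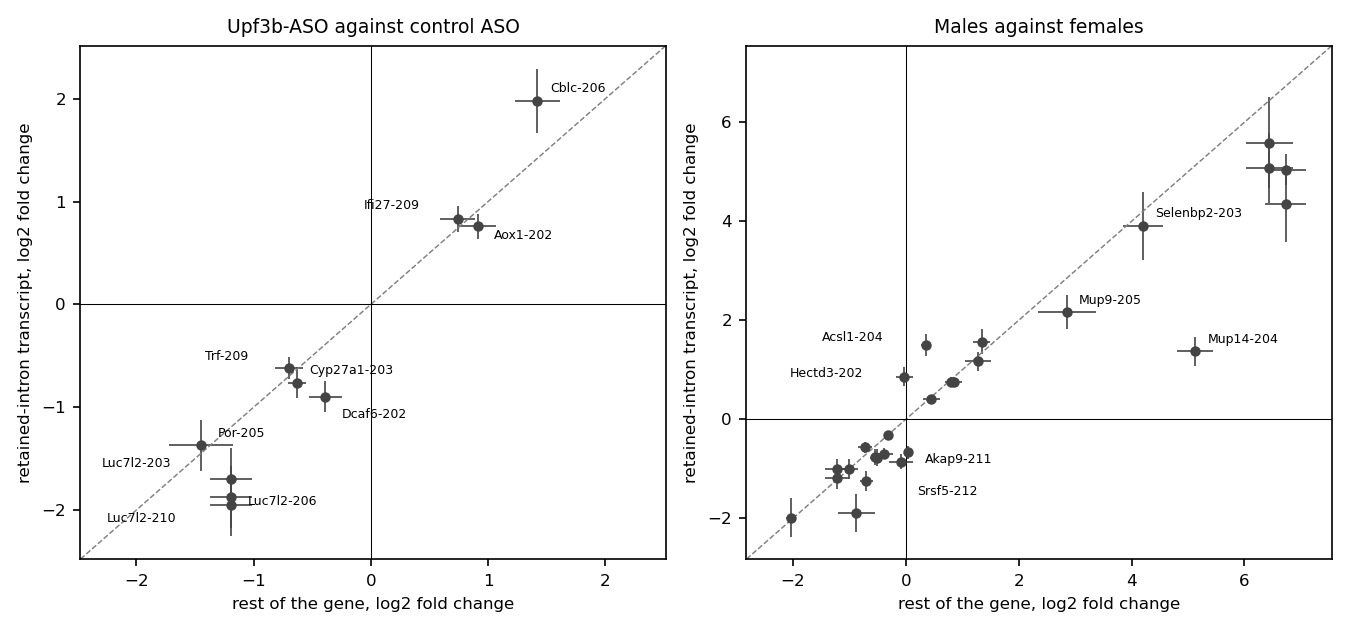
Log2 fold change of called retained-intron transcripts against that of the rest of the gene, its summed counts without any retained-intron transcript, for the Upf3b-ASO against the control ASO (left) and for males against females (right), with SE bars and a dashed line of equal change. Clip1-207, at 0 in every treated liver, and transcripts whose rest of the gene was not tested are left out, and not every other called transcript is drawn. The Luc7l2 transcripts lie below the line on the left, and Srsf5-212, Akap9-211 and Hectd3-202 lie off it near 0 for the rest of the gene on the right.

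Usage, the abundance of a transcript relative to its gene, was rarely called. Of 4814 retained-intron transcripts tested, 1 was called in each comparison of groups. There were 4 against the control ASO, 2 against DPBS and 4 for the control ASO against DPBS when control ASO replicate 3 was left out. Among all transcripts those fits called 60, 44 and 49 in usage. Clip1-207 was called against the control ASO, and Dcun1d1-204, of a regulator of cullin neddylation, was called for the Upf3b-ASO against DPBS (adjusted p = 0.00055, edgeR diffSpliceDGE; 0.0983% of all transcripts) and for the control ASO against DPBS (0.107% of all transcripts). These last comparisons share the DPBS livers, in all 4 of which Dcun1d1-204 was at 0. It was also at 0 in control ASO replicate 3 and Upf3b-ASO replicate 4, and at 0.484 to 1.83 CPM in the remaining livers. It rested on 48 estimated counts over the control ASO livers and 71 over the Upf3b-ASO livers. Only these groups brought it past the filter, so it was tested because of its level where it is high. Its level was not called against DPBS for the Upf3b-ASO (adjusted p = 0.2, edgeR) or the control ASO (adjusted p = 0.95).

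Transcripts were also grouped by the stop codon and by unique sequence, without a test. Of the 862 tested transcripts with an in-frame stop and an exon junction more than 50 bases behind it, 3 were called against the control ASO, 1 higher, with a median log2 fold change of -0.11. Of the 1928 with a stop but no such junction, 3 were called, all lower, with a median of -0.19. Over all tested transcripts 1.35% were called, with 0.444% higher and 0.908% lower. Against DPBS the medians were 0.02 and -0.04. By unique sequence, the medians against the control ASO were -0.01 for transcripts with no unique base, 0.01 for 1 to 99 unique bases, -0.16 for 100 to 499 and -0.23 for 500 or more. For the control ASO against DPBS the same classes had medians of 0.01, 0.04, 0.13 and 0.18. Without control ASO replicate 3 the medians by stop codon were 0.03 with such a junction and -0.04 without. There were 7 and 16 calls, 4 and 3 of them higher, beside 3.26% of all tested transcripts called. Those by unique sequence, in the same order, were 0.06, 0.06, -0.04 and -0.07 against the control ASO and -0.01, -0.01, 0.02 and 0.02 for the control ASO against DPBS.

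Genes of the NMD machinery and the exon junction complex had 41 retained-intron transcripts in 13 of 28 genes, of which 15 in 7 genes were tested. None was called between groups by edgeR, by DESeq2 or by limma with voom quality weights, and 1 had an unadjusted p-value under 0.05 against the control ASO and 0 against DPBS. The median log2 fold change was -0.19 against the control ASO and 0.18 against DPBS. The first turned to 0.19 without control ASO replicate 3, again with none called. The most abundant was Rbm8a-204, of the exon junction core protein Y14, at 4.63 to 8.7 CPM over the 12 livers. Rbm8a-205, Acin1-209, Gspt1-203 of a translation termination factor, and Smg5-206 were each at or below 2.83 CPM in every liver. Their adjusted p-values against the control ASO were between 0.46 and 0.9.

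Upf3b, Upf2 and F9 have no retained-intron transcript among those quantified. Smg6-203, of the NMD endonuclease, did not pass the filter and was at 0.558 to 0.979 CPM in the control ASO livers, 0.278 to 0.365 in the Upf3b-ASO livers and 0.274 to 0.483 in the DPBS livers. The rest of Smg6 fell by 1.72 ± 0.13 on the log2 scale against the control ASO (adjusted p = 4.1e-05, edgeR) and by 1.76 ± 0.13 against DPBS. Smg1-205 and Smg1-206, of the kinase that phosphorylates UPF1, were highest in control ASO replicate 3, at 5.28 and 4.53 CPM, and at or below 1.63 CPM in the other 11 livers.

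The splicing factors of the SR and SR-like group had 55 retained-intron transcripts, of which 39 in 15 genes were tested. Against the control ASO 3 fell, all of Luc7l2, and none rose, beside 0.908% of all transcripts lower and 0.444% higher. The median log2 fold change was -0.37. Without control ASO replicate 3 these 3 were again the ones called, beside 3.26% of all transcripts, with a median of -0.004. Srsf2-203 was at 29.4 to 35.5 CPM in the Upf3b-ASO livers and 17.3 to 36.9 in the control ASO livers, and Srsf3-205 at 11.6 to 15.8 and 13.0 to 45.7 CPM. In control ASO replicate 3 Srsf2-203 was lowest and Srsf3-205 highest of all 12 livers. The 7 tested Rbm39 transcripts had log2 fold changes of -0.79 to 1.22 against the control ASO with adjusted p-values of 0.55 to 0.92 (edgeR).

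Among the CLK, SRPK and DYRK kinases, which phosphorylate SR proteins, and other genes known for detained introns, 46 of 73 retained-intron transcripts were tested and none was called between groups by edgeR, DESeq2 or limma with voom weights, with 2 at an unadjusted p-value under 0.05 against the control ASO and 1 against DPBS. Clk1-204 keeps 3 introns whole and has an in-frame intronic stop with an exon junction more than 50 bases behind it. It was at 20.6 to 24.8 CPM under DPBS, 26.4, 23.5, 54.9 and 22.5 under the control ASO and 19.2 to 29.0 under the Upf3b-ASO. The 54.9 CPM was that of replicate 3. Ccnl2-205, of a cyclin of the spliceosome, was at 73.7 to 107 CPM over the 12 livers and held on average 61.7% to 66.0% of its gene in the groups. It has no unique base and keeps no intron whole. The median log2 fold change of this group was -0.39 against the control ASO and -0.03 without replicate 3, where none was called either, against 0.08 relative to DPBS.

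For the hnRNP genes 35 of 45 were tested and none was called by any of these tools, with 3 at an unadjusted p-value under 0.05 against the control ASO and 0 against DPBS, and none was called against the control ASO without replicate 3. Genes of secreted liver proteins had 11 retained-intron transcripts in 6 of 53 genes, and of the 10 tested Trf-209 fell against the control ASO, also without replicate 3. Drug metabolism genes had 28 tested, with Aox1-202 higher and Por-205 and Cyp27a1-203 lower against the control ASO and none called against DPBS by edgeR (6 at an unadjusted p-value under 0.05, and 4 called by DESeq2). Against the control ASO without replicate 3, 2 of them were called higher and 4 lower. Over all tested transcripts 1.35% were called against the control ASO with all livers and 3.26% without replicate 3. DESeq2 called 5.2% of all transcripts that it gave an adjusted p against DPBS. The 20 acute phase and stress genes had 4, none of which passed the filter.

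Males and females were compared within the same fit, over 6 livers each. The summed hepatocyte marker level was 104000 to 118000 TPM in females and 58400 to 78200 in males, and its part in these results was not tested. Of the 4890 transcripts, 30 were called, 15 higher in males and 15 lower, against 2.16% of all transcripts, with 0.967% higher and 1.19% lower. In 22 of the 28 with a tested rest of the gene, that rest was called in the same direction, beside 10.0% of 8518 genes. The 30 transcripts lie in 27 genes. Without control ASO replicate 3 there were 60 calls, 33 higher and 27 lower, which included 28 of the 30, beside 3.94% of all transcripts, and with all livers DESeq2 called 93, beside 5.37% of all. The largest rises were those of the Y-linked Ddx3y-202, Ddx3y-203 and Eif2s3y-205, with log2 fold changes of 5.59 ± 0.92, 5.07 ± 0.71 and 5.04 ± 0.31. Among the largest falls were those of Slc13a4-202, of a sulfate transporter, and Prlr-201, of the prolactin receptor.

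Slc13a4-202 was at 2.29 to 7.62 CPM in females and 0.267 to 0.76 in males (log2 fold change -2.79 ± 0.27, adjusted p = 0.00027, edgeR), and Prlr-201 at 3.47 to 10.9 and 0.401 to 4.35 CPM (-1.99 ± 0.39, adjusted p = 0.028). The sexes overlapped for Prlr-201, through the 4.35 CPM of control ASO replicate 3, and not for Slc13a4-202. Mup9-205 was at 265 to 1400 CPM in females and 2560 to 4840 in males, without overlap, and rose by 2.17 ± 0.34 (adjusted p = 0.0081), with the caution on copies given above.

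Some transcripts differed between the sexes where the rest of the gene was not called. Srsf5-212, of an SR splicing factor, was at 107, 102, 111, 103, 109 and 94.5 CPM in the females and 74.6, 75.7, 35.4, 60.4, 48.5 and 57.5 in the males. No male reached a female, and the log2 fold change was -0.86 ± 0.15 (adjusted p = 0.013, edgeR) while that of the rest of Srsf5 was -0.09 ± 0.21. It held 37.1% of its gene's counts in females and 27.6% in males, although it has no unique base and its usage was not called (adjusted p = 1.0).

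Akap9-211 is a single exon of 2323 bases inside the gene of a Golgi and centrosome scaffold protein, with both ends in introns and 2203 unique bases. Its levels were 24.1 to 32.4 CPM in females and 11.7 to 23.6 in males, without overlap (-0.67 ± 0.13, adjusted p = 0.022, edgeR), against 0.04 ± 0.07 for the rest of the gene. Within the males the Upf3b-ASO livers were lowest, at 11.9 and 11.7 CPM. Hectd3-202, of a ubiquitin ligase, was at 1.55 to 2.15 CPM in females and 2.56 to 3.64 in males (0.86 ± 0.19, adjusted p = 0.045), against -0.03 ± 0.15 for the rest. With each liver left out in turn the call held in 12 of 12 fits for Srsf5-212, in 8 for Akap9-211 and in 1 for Hectd3-202.

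Acsl1-204, of a long-chain acyl-CoA synthetase, was also called in usage. It was at 6.99 to 11.4 CPM in females and 14.4 to 33.3 in males, without overlap, and rose by 1.5 ± 0.22 (adjusted p = 0.0054, edgeR) against 0.36 ± 0.09 for the rest of the gene, with a share of 0.952% in females and 2.04% in males. A usage test for the sexes, added after the data were seen, gave Acsl1-204 (adjusted p = 0.03, edgeR diffSpliceDGE) along with Mup14-204, Arsa-201 and Commd9-203, beside 0.162% of all transcripts. Arsa-201, of a lysosomal arylsulfatase, had a log2 fold change of -0.46 ± 0.22 (adjusted p = 0.47), while the rest of the gene was higher in males by 2.62 ± 0.15.

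**Figure D5:**
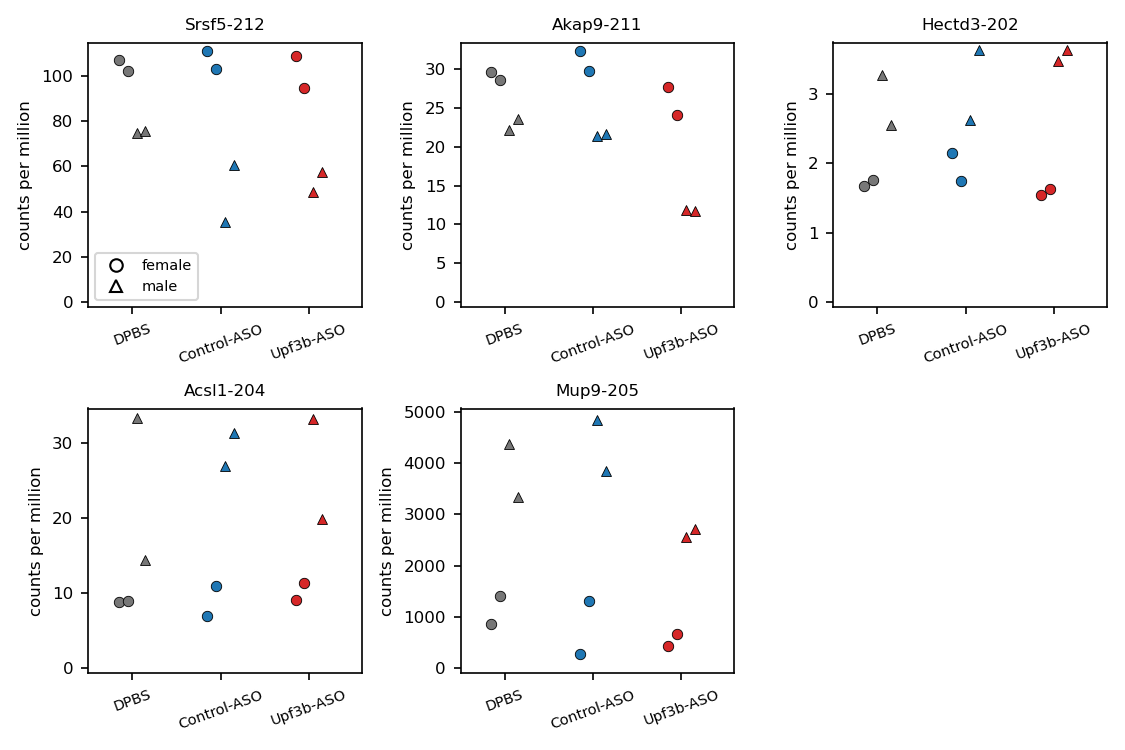
Levels, in CPM, of 5 retained-intron transcripts called between the sexes, in each liver, with circles for females and triangles for males. All females lie above all males for Srsf5-212 and Akap9-211, and below them for Hectd3-202, Acsl1-204 and Mup9-205, in each of the 3 groups.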

How the data were processed

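RNA-seq was done on 12 livers, 1 library per mouse, from total RNA with an Illumina TruSeq kit. The authors demultiplexed reads with bcl2fastq 2.17.1.14 and quantified them with Salmon 0.7.2 (automatic library type) against Ensembl release 81 cDNA of GRCm38. The deposited estimated counts (expected counts, rounded here for the count tests) and the deposited TPM values are per transcript and liver. Introns outside annotated transcripts were not in the index, so reads of unspliced RNA can fall on these transcripts, and whether reads kept strand is not given in the sources used here.

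Transcripts were joined to GENCODE M21 (GRCm38) by identifier (98.1% of 92468), and 97.27% of the retained-intron transcripts had the same length in both. The members and gene lists were chosen with earlier results of these data known. Transcripts with at least 1 TPM and 10 counts in at least 4 livers were tested with edgeR 4.0.16 in R 4.3.3 (TMM, quasi-likelihood, all 12 livers, sex as covariate) and for usage with diffSpliceDGE. CPM are scaled by TMM library sizes, and SE were derived from the F statistic. The rest of a gene was its summed counts without retained-intron transcripts, tested likewise in genes of at least 5 TPM. Per-liver log2 ratios used a pseudocount of 0.5 CPM. Alternatives used DESeq2 1.42.0, limma 3.58.1, other filters, a replicate block and leaving out each liver. For the rest of a gene only control ASO replicate 3 was left out, which was added after the data were seen. The fits were also run on simulated counts, which did not model how Salmon divides shared reads. No result here rests on that run.

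Named transcripts were those called against both references without overlap (up to 10 each way), up to 3 per direction for the sexes, the 5 highest by TPM and by share of the gene, up to 6 per list of NMD, SR and kinase genes, and any of Upf3b, F9, Smg6, Upf2 or Smg1. All others were chosen after their values were seen. Livers treated with a Upf1 ASO were not analysed here. A few transcripts that meet these rules are not reported here.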

Additional observations from a re-analysis of the deposited data

Results flagged for a closer look

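In 4 of 153 groups of 4 livers, covering 51 measures of the transcripts called or of their total, 1 liver lay far from the other 3, and chance flags about 1 in 20 groups. The level of Luc7l2-210 reached 21.6 CPM in control ASO replicate 3, while the rest of that group lay between 9.15 and 9.85. In control ASO replicate 4, a male, Selenbp2-203 was at 142 CPM against 3.66 to 10.7 and Mcm10-209 at 33.8 CPM against 3.21 to 5.11, and both are transcripts called higher in males. The other male of that group, replicate 3, was at 10.7 CPM for Selenbp2-203 and 4.84 CPM for Mcm10-209. For Abcc2-203, Upf3b-ASO replicate 4 had 13.2 CPM and the remaining treated livers had 12.3 to 12.4. What set these livers apart was not tested.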

How the results depend on the processing

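Of 1051 recomputed values of named transcripts 743 kept their call, 308 no longer passed the threshold and 0 reversed. Against the control ASO (13 calls), DESeq2 called 87, voom with sample quality weights 65, a filter of 5 TPM 20, no filter 7, no sex covariate 7 and a fit of the 2 groups alone 0. Among all transcripts (390 calls) these gave, in the same order, 1620, 1268, 574, 176, 228 and 44. Against DPBS (12 calls) there were 69 with DESeq2, 79 with voom, 5 without a filter and 43 with 2 groups. Among all transcripts (357 calls) there were 1268, 1401, 166 and 926. DESeq2 gave 2 for the control ASO against DPBS, against 0, beside 94 among all transcripts. For the sexes (30 calls) DESeq2 gave 93, voom 59, and limma on log2(TPM + 0.1) and log2(TPM + 1) 127 and 160. Among all transcripts (623 calls) these gave 1458, 1107, 1793 and 2082. In the limma fits 112 and 143 of the retained-intron calls were lower in males. The median log2 fold change over all transcripts was -0.315 and -0.239 there. Leaving out 1 liver gave 1 to 45 calls against the control ASO, 2 to 60 against DPBS and 19 to 60 for the sexes. The highest counts came without control ASO replicate 3 (for DPBS an alternative added after the data were seen) and the lowest without Upf3b-ASO replicate 4 for both treated comparisons and without control ASO replicate 4 for the sexes. Those fits called, lowest first, 106 and 940 of all transcripts against the control ASO. Against DPBS they called 109 and 1304, and for the sexes 505 and 1136. Against the control ASO the retained-intron count was also 4 without control ASO replicate 2, 5 without Upf3b-ASO replicate 2 and 6 without Upf3b-ASO replicate 3, beside 162, 162 and 189 of all transcripts. Against DPBS it was 3 or 4 without any 1 DPBS liver or Upf3b-ASO replicate 1 or 2, beside 119 to 185 of all transcripts.

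Usage counts of 1 became 2 with 100 unique bases, 2 with limma on the arcsine share and 4 without a filter against the control ASO. Among all transcripts (33 calls) these gave 4, 11 and 94. Against DPBS they became 3 with 100 unique bases, 0 with the arcsine share, 3 without sex and 2 with 2 groups, beside 8, 9, 36 and 37 among all transcripts (23 calls). For the control ASO against DPBS they became 0 with a filter of 5 TPM, 100 unique bases or the arcsine share and 2 without a filter. Among all transcripts (25 calls) there were 0, 0, 1 and 56. Leaving out 1 liver gave 1 to 4, 1 to 4 and 0 to 4, beside 23 to 60, 21 to 44 and 15 to 49 among all transcripts. The difference in the count share (-0.16 points) was -0.582 in genes with such a transcript and -0.692 for the median share within genes. The TPM difference (-0.733) was -2.17 and -1.31 in these, 0.167 without the 10 highest transcripts and -0.0629 with 100 unique bases. Without single livers they ran from -0.228 to -0.0784 and from -0.92 to -0.612. The cause of these shifts was not tested.

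The labels number the mice alike in each group, but livers of the same number did not deviate together (correlations of -0.0249 to 0.0099 after group and sex), nor did every liver correlate best with its own number, so they were not treated as pairs. With a replicate block the calls numbered 10 against the control ASO and 4 against DPBS, beside 224 and 156 among all transcripts. Usage of the control ASO against DPBS went to 0, beside 11 among all. A median of 27.2 counts per liver limits the precision of single transcripts.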

Other observations

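Without control ASO replicate 3, 45 retained-intron transcripts were called against the control ASO, which included the 13 called with all livers. Those named here were chosen after their values were seen. Transcripts of the growth hormone receptor gene fell, Ghr-207 by 1.29 and Ghr-210 by 1.03 on the log2 scale (adjusted p = 0.016 and 0.023, edgeR), where the rest of Ghr in the comparison with all livers had a log2 fold change of -1.01. The clock output gene Tef had Tef-203 lower by 1.1 and Tef-207 by 0.92 (adjusted p = 0.0041 and 0.021), and the xenobiotic receptor gene Nr1i3 had Nr1i3-207 lower by 1.12 (adjusted p = 0.015). Pck1-204, of the gluconeogenic enzyme PEPCK, fell by 1.12 (adjusted p = 0.047). With all livers the adjusted p-values of these 6 were between 0.085 and 0.49. Among those higher were Acox2-203, of a bile acid side chain oxidase, by 0.99 (adjusted p = 0.022), and Hsd3b7-210, of a bile acid synthesis enzyme, by 0.69 (adjusted p = 0.016), with log2 fold changes of 0.87 and 0.74 for the rest of their genes.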
